A study of Mus musculus with 20 samples.

Results

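Fam43a, Fam13a, Hfe, Pwp2 and Arhgap29 are 5 of the 22048 genes counted in arcuate nuclei (ARC) of male C57BL6/J mice given corticosterone (Cort). They were chosen by their own readout, as genes with higher counts in Cort than in vehicle samples after 4 weeks, so their 4 week values are a description and carry no test. The 2 day contrast is not part of that rule and was tested, though the genes were grouped as late-rising with its results known, so a lack of calls there is no independent support for the name. The mice, 10 weeks old by their labels, were acclimatized and measured at baseline before treatment. They then drank either 1% ethanol (vehicle) or 75 µg/ml Cort in 1% ethanol, for 2 days or for 4 weeks. The 4 week mice of both groups were then fasted for 16 h and refed for 24 h while treatment went on. Each of the 4 groups (2 day vehicle, 2 day Cort, 4 week vehicle, 4 week Cort) had 5 samples, each the whole ARC taken by laser capture with its RNA amplified. The study kept 3 vehicle and 4 Cort samples in each set, and its choice was followed in the main comparisons, with all 10 samples beside them. The sets also differed in age at sampling, section thickness, capture microscope and sequencer. Fasting with refeeding took place in the 4 week set alone, so a difference between the sets cannot be told apart from any of these. Samples are named here by the number that ends their column, C01 to C10 in each set.

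Glucocorticoids act mainly through the glucocorticoid receptor, a transcription factor that binds DNA as a pair at palindromic elements built from a short half-site. The ARC holds the AgRP and POMC neurons that sense hormones and set food intake, together with astrocytes, tanycytes, oligodendrocytes, microglia and vessels. The 5 genes have no common pathway. Fam43a encodes a little-studied protein with a phosphotyrosine interaction domain. Fam13a is named for sequence similarity, and its human counterpart is known from genetic studies of lung disease and fat distribution. Arhgap29 encodes a protein that acts with Rap1 and Rasip1 in endothelial cells. Hfe encodes a class I-like membrane protein that pairs with beta 2-microglobulin, binds the transferrin receptor and is mutated in hereditary haemochromatosis. Pwp2 encodes a WD-repeat subunit of the small subunit processome, the nucleolar particle that makes the small ribosomal subunit.

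All 5 genes are protein-coding. On GRCm38, Fam43a (ENSMUSG00000046546) lies on chromosome 16 from 30599723 to 30602797 on the plus strand, with 1 transcript and 3075 exon bases. Fam13a (ENSMUSG00000037709) lies on chromosome 6 from 58932090 to 59024549 on the minus strand, with 10505 exon bases, of which 0.742% also belong to 3 genes on the opposite strand. Hfe (ENSMUSG00000006611) lies on chromosome 13 from 23702034 to 23710854 on the minus strand, with 3572 exon bases. Of the stretches of 50 bases in Hfe transcripts, the length of a read, 3.23% also occur in other genes. The share of its counts that came from such stretches was not measured. Pwp2 (ENSMUSG00000032834) lies on chromosome 10 from 78170909 to 78185149 on the minus strand, and Arhgap29 (ENSMUSG00000039831) on chromosome 3 from 121952541 to 122016753 on the plus strand. No such shared stretch was found for Fam43a, Pwp2 or Arhgap29, and the share for Fam13a was 0.275%.

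The promoters of Fam43a, Fam13a and Hfe are shown because these genes stood apart between Cort and vehicle in all 10 samples at 4 weeks, and the first listed promoter of Arhgap29 because it did not and differs from them in its GC boxes. Each is the RefSeq GRCm38.p6 sequence from 250 bases before to 50 after an annotated start, at chr16:30599473-30599772 (plus strand) for Fam43a, chr6:59024453-59024752 (minus) for Fam13a, chr13:23710805-23711104 (minus) for Hfe and chr3:121952979-121953278 (plus) for Arhgap29. Capitals mark every match, on either strand, to the glucocorticoid receptor half-site AGAACA or the GC box GGGCGG.
Fam43a: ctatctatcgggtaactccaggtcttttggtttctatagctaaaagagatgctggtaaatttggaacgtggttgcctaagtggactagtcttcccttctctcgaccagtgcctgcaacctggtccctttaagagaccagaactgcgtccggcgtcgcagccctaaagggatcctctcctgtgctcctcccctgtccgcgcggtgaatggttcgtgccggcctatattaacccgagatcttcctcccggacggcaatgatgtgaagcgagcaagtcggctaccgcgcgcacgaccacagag
Fam13a: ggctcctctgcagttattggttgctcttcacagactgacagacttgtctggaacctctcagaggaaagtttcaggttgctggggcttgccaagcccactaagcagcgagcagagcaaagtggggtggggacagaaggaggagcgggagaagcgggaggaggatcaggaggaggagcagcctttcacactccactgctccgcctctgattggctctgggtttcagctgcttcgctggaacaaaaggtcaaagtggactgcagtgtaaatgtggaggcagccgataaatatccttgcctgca
Hfe: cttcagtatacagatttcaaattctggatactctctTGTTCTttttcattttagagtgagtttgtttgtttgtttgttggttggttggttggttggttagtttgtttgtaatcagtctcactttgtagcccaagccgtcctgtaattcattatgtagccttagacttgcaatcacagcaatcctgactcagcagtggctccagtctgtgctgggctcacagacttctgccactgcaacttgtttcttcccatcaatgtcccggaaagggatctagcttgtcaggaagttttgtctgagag
Arhgap29: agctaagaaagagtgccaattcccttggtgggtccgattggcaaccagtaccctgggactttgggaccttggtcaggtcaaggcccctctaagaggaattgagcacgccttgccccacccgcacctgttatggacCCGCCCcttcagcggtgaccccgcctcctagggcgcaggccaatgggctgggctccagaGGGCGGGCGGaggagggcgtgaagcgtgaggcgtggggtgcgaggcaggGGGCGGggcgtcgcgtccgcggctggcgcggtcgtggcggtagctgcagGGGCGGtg
Hfe had 1 half-site, and none was found in the other members' promoters, against a match in 19% of 32851 promoters of this length. The palindromic element, taken as the half-site and its reverse complement with 3 bases between, was in none of them and in 0.00913% of all promoters. The E-box CACGTG, in 7.15% of all promoters, was also in none. GC boxes stood in 35.7% of all promoters. The first Arhgap29 promoter held 5, some of them overlapping, its second promoter held 3 and that of Pwp2 held 2, while Fam43a, Fam13a and Hfe held none. GC content was 55% for Fam43a and Fam13a, 42.7% for Hfe, 60% for Pwp2 and 68% for the first Arhgap29 promoter, against a median of 52.7% over all. These counts describe the letters in these windows only.

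Total counts per sample were 2487063 to 5748223 at 2 days and 1065776 to 5196364 at 4 weeks, the lowest being vehicle C01 of the 4 week set, a sample the study left out. Summed over 9 arcuate neuron markers, the level in counts scaled to library size (CPM) was 1807 to 3889 in the 2 day samples and 1056 to 2519 in the 4 week samples. Over 5 markers of the neighbouring ventromedial hypothalamus it was 18.4 to 81.1 and 1.24 to 89.8 CPM. Among genes tested, 8 at 2 days and 5 at 4 weeks had a Padj below 0.1 by edgeR's quasi-likelihood test, so few genes of any kind passed in these small groups. The labels do not say that samples of a group came from separate animals, and p-values measure the spread between these samples.

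**Figure D1:**
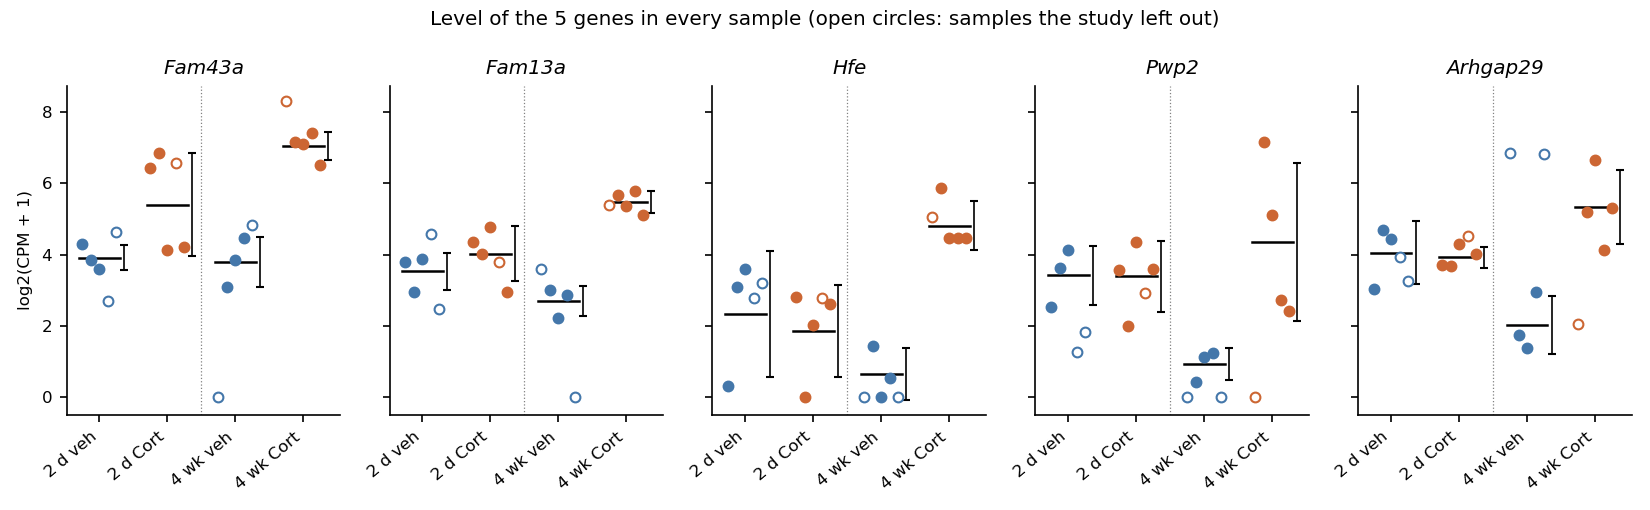
Level of each of the 5 genes in every sample as log2(CPM + 1), where 0 is no count, with blue for vehicle and orange for Cort, filled circles for samples kept by the study and open circles for those left out, and lines with bars for the mean and SD of the kept samples. At 4 weeks Fam43a, Fam13a and Hfe were higher in each of the 5 Cort than in each of the 5 vehicle samples, while open circles cross over for Pwp2 and Arhgap29.

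In the 4 week set all 5 genes, by choice, were higher in the 4 kept Cort than in the 3 kept vehicle samples, and the left-out samples then separated them into 3 that kept this order and 2 that did not. Of all genes tested there, 3.23% had every kept Cort sample above every kept vehicle sample, and 0.539% had this order over all 10. Since the choice used this contrast, these shares are given as background only. The 5 log2 fold changes ranged from 2.95 to 5.53 with a median of 3.73, against a median of 0.04 over 11211 genes. At 2 days none of the 5 had this order over the 7 or the 10 samples, against 3.02% and 0.334% of genes, and their median log2 fold change was 0.06, against 0.02 over 12309 genes. In the 2 day set 0.0569% of genes were called higher and 0.00812% lower with Cort at a Padj below 0.1, and 3.14% were higher and 2.83% lower at an unadjusted p below 0.05. None of the 5 members was called at 2 days by edgeR, and 1 of them, Fam43a, had an unadjusted p below 0.05. DESeq2 on the same 7 samples and voom with quality weights over all 10 also called none.

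Fam43a was the only member with an unadjusted p below 0.05 by edgeR at 2 days, so the word late describes it less well than the others. At 4 weeks its Cort samples were above its vehicle samples over all 10, which was not so for Pwp2 and Arhgap29. In the 2 day vehicle samples its level was 18.7 CPM in C02, 13.4 in C04 and 11.2 in C05, with 5.47 and 23.7 CPM in the left-out C07 and C09. The 2 day Cort samples gave 85.7 CPM in C01, 113 in C03, 16.4 in C06 and 17.5 in C10, with 94.6 CPM in the left-out C08. Of the 5 Cort samples, C01, C03 and C08 were thus above every vehicle sample, while C06 and C10 lay within the vehicle range. Cort over vehicle gave a log2 fold change of 2.03 ± 0.55 (SE; 95% confidence interval 0.88 to 3.18; Padj = 0.443 by edgeR's quasi-likelihood test). Over all 10 samples it was 2.20 ± 0.49 (Padj = 0.272 by edgeR). Without C06 it was 2.34 with a Padj of 0.0546 by edgeR, which is below the threshold of 0.1, and without a filter on low counts it was 2.03 with a Padj of 0.0261. Removal of any 1 of the 7 samples left it between 1.49 and 2.34.

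At 4 weeks the Fam43a groups stood apart. The kept vehicle samples C02, C03 and C04 had 7.44, 13.3 and 21.1 CPM, and the left-out C01 and C05 had no count and 27.7 CPM. In C01, 3 counts would have been 2.75 CPM, so a level at or under that could have been missed. The kept Cort samples C07, C08, C09 and C10 had 142, 137, 170 and 89.5 CPM, and the left-out C06 had 316 CPM, the highest of the 10. All Cort samples lay above all vehicle samples, with a gap from 27.7 to 89.5 CPM. The fitted log2 fold change was 3.26 ± 0.55 (SE) in the kept samples and 3.58 ± 0.69 over all 10. The vehicle mean was 14.4 ± 3.84 CPM at 2 days and 13.9 ± 6.83 CPM at 4 weeks (SD, n = 3 each), in sets that were scaled separately. The 4 week minus 2 day difference in log2 fold change was 1.23 ± 0.78 (SE), the smallest of the 5 members. It is a description and no test, since the choice of the genes used the 4 week value.

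Placed beside other steroid-responsive genes, Fam43a had a wider spread among Cort samples at 2 days than at 4 weeks, with an SD of log2 CPM of 1.46 against 0.39 in the 4 kept samples. Fam107a, a glucocorticoid-induced gene that encodes an actin-associated protein, had 916 CPM in C06 and 1282 CPM in C10, the Cort samples in which Fam43a was low, against 464 to 639 CPM in the kept vehicle samples. Fkbp5, a receptor cochaperone and standard glucocorticoid target, had 30.7 CPM in C06 and 84.3 CPM in C10, against 19.7 to 25.9 CPM in the kept vehicle samples. Both genes were thus above their kept vehicle samples in C06 and C10, where Fam43a was not. Fam107a rose at 2 days by 0.98 ± 0.14 (log2 ± SE, Padj = 0.0048 by edgeR). Over all 10 samples, in which the left-out vehicle C07 had 1021 CPM, the call was lost in the unweighted fit (Padj = 0.264 by edgeR). With voom quality weights over all 10, Fam107a was called. At 4 weeks it rose by 1.44 ± 0.25 (Padj = 0.0966 by edgeR, and 0.0311 over all 10). By edgeR, Fkbp5 did not pass in the 7 samples at 2 days (1.57 ± 0.35, Padj = 0.243) and passed over all 10 (1.86, Padj = 0.0906). DESeq2 on the same 7 samples called Fkbp5 at 2 days, while voom with quality weights over all 10 did not. The 4 week log2 fold change of Fkbp5 was −0.22 ± 0.88, with vehicle C02 at 165 CPM above every Cort sample.

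**Figure D2:**
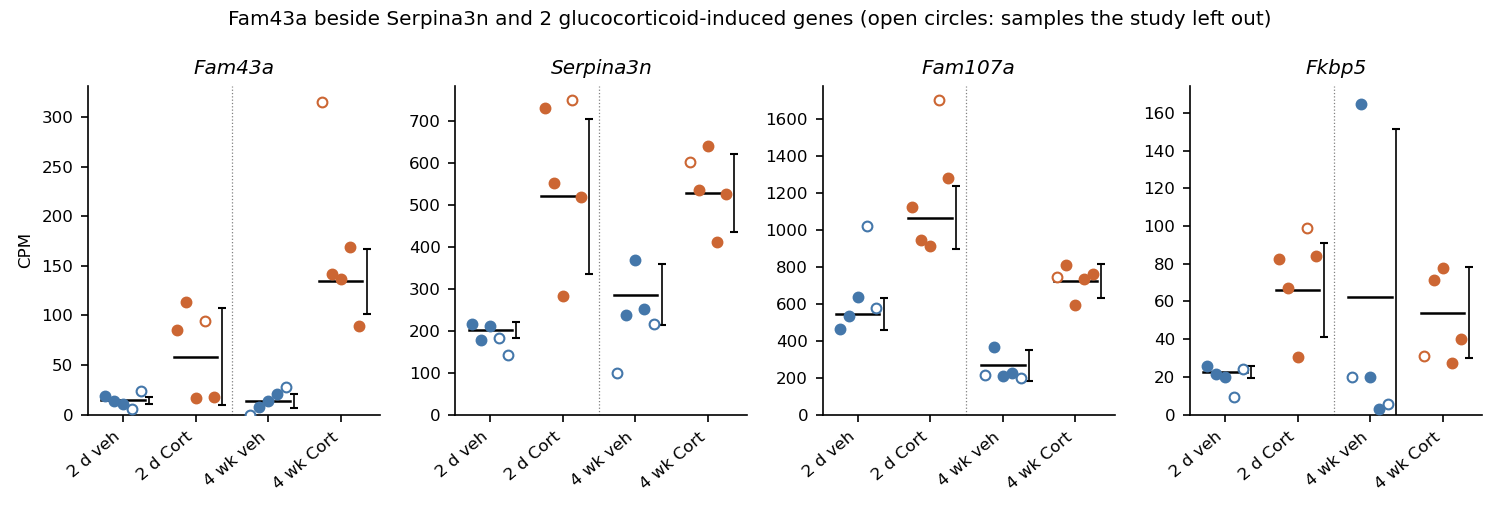
CPM of Fam43a, Serpina3n, Fam107a and Fkbp5 in every sample on linear axes from 0, with blue for vehicle, orange for Cort, open circles for samples the study left out, and lines and bars for the mean and SD of the kept samples. Fam43a at 2 days has 3 Cort samples from 85.7 to 113 CPM and 2 at 16.4 and 17.5 CPM, and at 4 weeks all 5 Cort samples are at 89.5 CPM or more.

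Fam13a showed the least spread among 4 week Cort samples and no difference at 2 days that passed the test. At 2 days the kept vehicle samples C02, C04 and C05 had 12.9, 6.68 and 13.6 CPM and the kept Cort samples C01, C03, C06 and C10 had 19.5, 15.2, 26.3 and 6.76 CPM. The left-out vehicle samples C07 and C09 had 22.7 and 4.56 CPM and the left-out Cort sample C08 had 12.9 CPM, so the groups overlapped over almost their whole range. Its log2 fold change was 0.63 ± 0.52 (SE; 95% confidence interval −0.46 to 1.72; Padj = 0.933 by edgeR), which leaves room for a rise of over 1 on the log2 scale.

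At 4 weeks the kept vehicle samples C02, C03 and C04 had 7.10, 3.62 and 6.27 CPM of Fam13a, and the left-out C01 and C05 had 11.02 CPM and no count. The kept Cort samples C07 to C10 had 50.3, 40, 53.6 and 33.2 CPM, and the left-out C06 had 41.2 CPM. The lowest Cort sample, at 33.2 CPM, was thus well above the highest vehicle sample, at 11.02 CPM. In the fit the log2 fold change was 2.95 ± 0.83 (SE) in the kept samples and 2.95 ± 0.95 over all 10, and the kept Cort samples had an SD of log2 CPM of 0.31. The vehicle mean was 5.66 ± 1.82 CPM here and 11.1 ± 3.82 CPM at 2 days (SD, n = 3 each; the sets were scaled separately). The difference between the sets in log2 fold change was 2.31 ± 0.98 (SE), likewise a description and no test.

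Arhgap29 was higher with Cort at 4 weeks in the kept samples, a difference that depended on the samples and weights used. At 2 days the kept vehicle samples C02, C04 and C05 had 7.22, 24.8 and 20.5 CPM, and the kept Cort samples C01, C03, C06 and C10 had 12.1, 11.8, 18.6 and 15.1 CPM. With 14.2 and 8.56 CPM in the left-out vehicle samples and 21.9 CPM in the left-out Cort sample, the Cort values lay inside the vehicle range. Here the log2 fold change was −0.27 ± 0.49 (SE; 95% confidence interval −1.29 to 0.74; Padj = 0.969 by edgeR), and 0.09 ± 0.45 over all 10.

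At 4 weeks the kept vehicle samples C02, C03 and C04 had 2.37, 1.61 and 6.72 CPM of Arhgap29, from 4 to 15 counts each. The left-out vehicle samples C01 and C05 had 114 and 113 CPM, the 2 highest values of the gene in any sample. Among Cort samples, C07, C08, C09 and C10 had 35.7, 100.2, 16.5 and 38.4 CPM, and the left-out C06 had 3.15 CPM. It gave a log2 fold change of 3.73 ± 0.99 (SE) in the kept samples and −0.32 ± 1.03 over all 10, so in the unweighted fit its direction turned on which samples were kept. Over all 10 samples with voom quality weights it was 2.24, and the summed counts of all 10 gave a ratio of 1.16. The kept vehicle mean of Arhgap29 was 17.5 ± 9.17 CPM at 2 days and 3.56 ± 2.76 CPM at 4 weeks (SD, n = 3 each). Over all 5 vehicle samples at 4 weeks it was 47.5 ± 60.1 CPM. Kept Cort means were 14.4 ± 3.16 and 47.7 ± 36.4 CPM (n = 4 each), with the sets scaled separately. The summed level of 9 mural cell markers, each with counts in this set, was 543 CPM in C01 and 765 CPM in C05, the 2 highest of the 10 samples, against 216 to 486 CPM in the other 8. The summed level of 14 endothelial markers, also all with counts, was 67.0 and 90.1 CPM in C01 and C05, against 83.2 to 479 CPM in the other 8. The part of vessel cells in the Arhgap29 values was not tested.

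Hfe, the iron-related member, was close to absent from 4 week vehicle samples and present in every 4 week Cort sample. At 2 days the kept vehicle samples C02, C04 and C05 had 0.249, 7.55 and 11.2 CPM, and the kept Cort samples C01, C03, C06 and C10 had 5.97, 0, 3.04 and 5.17 CPM. The left-out samples had 5.87 and 8.27 CPM (vehicle) and 5.94 CPM (Cort), so the groups overlapped and each held a sample with at most 1 count. Cort minus vehicle was −0.82 ± 1.04 on the log2 scale (SE; 95% confidence interval −2.98 to 1.35; Padj = 0.950 by edgeR), a wide interval.

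At 4 weeks the kept vehicle samples C02, C03 and C04 had 5, 0 and 1 counts of Hfe (1.69, 0 and 0.448 CPM), and the left-out C01 and C05 had none. The kept Cort samples C07 to C10 had 277, 89, 41 and 68 counts (57.2, 21.2, 21.1 and 20.9 CPM), and the left-out C06 had 102 counts (32.1 CPM). Of the 5 vehicle samples, 4 were at or under 3 counts, and no Cort sample was. Summed over the kept samples, 475 counts against 6 gave a ratio of 42.7. It is given without an interval, since the choice used these values and reads of amplified RNA are not independent. Without Cort C07, which held 47.5% of the summed CPM of the 4 kept Cort samples, the ratio was 27.0. The fitted log2 fold change was 5.27 ± 1.33 (SE) in the kept samples and 5.87 ± 1.28 over all 10, and 6.88 without vehicle C02, the only vehicle sample above 3 counts. Such fitted values depend on the treatment of zero counts. The vehicle mean was 6.33 ± 5.57 CPM at 2 days and 0.713 ± 0.876 CPM at 4 weeks (SD, n = 3 each), while Cort samples had 3.55 ± 2.67 and 30.1 ± 18.0 CPM (n = 4 each). Beside the 2 day set, the 4 week set thus had the lower vehicle and the higher Cort mean, with the sets scaled separately.

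Pwp2, the ribosome assembly member, was high in 2 of the 4 week Cort samples, C07 and C08. At 2 days the kept vehicle samples C02, C04 and C05 had 4.73, 11.2 and 16.5 CPM, and the kept Cort samples C01, C03, C06 and C10 had 10.9, 3.03, 19.5 and 11.1 CPM. The left-out samples had 1.42 and 2.57 CPM (vehicle) and 6.55 CPM (Cort), and the groups overlapped. For Pwp2 the log2 fold change was 0.06 ± 0.62 (SE; 95% confidence interval −1.24 to 1.36; Padj = 0.997 by edgeR), and its sign turned without vehicle C02 (−0.29) or without Cort C06 (−0.36).

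At 4 weeks the kept vehicle samples C02, C03 and C04 had 1, 3 and 3 counts of Pwp2 and the left-out C01 and C05 had none, so all 5 were at or under 3 counts. The Cort samples had 681 counts in C07, 140 in C08, 11 in C09 and 14 in C10, and none in the left-out C06, where 3 counts would have been 0.944 CPM. In CPM the Cort values were 140.5 in C07, 33.3 in C08, 5.67 in C09, 4.30 in C10 and 0 in C06. C07 alone held 76.4% of the summed CPM of the 4 kept Cort samples. The summed counts, 846 against 7, gave a ratio of 65.2, and 19.3 without C07, again as a description only. The fitted log2 fold change was 5.53 ± 1.41 (SE), and 3.85 without C07. The vehicle mean was 10.8 ± 5.88 CPM at 2 days and 0.963 ± 0.545 CPM at 4 weeks (SD, n = 3 each). Cort means were 11.1 ± 6.71 and 46 ± 64.4 CPM (n = 4 each), with the sets scaled separately. The 4 week Cort samples C09 and C10 thus lay below the 2 day vehicle mean. Over all 10 samples Pwp2 did not pass the filter on low counts.

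**Figure D3:**
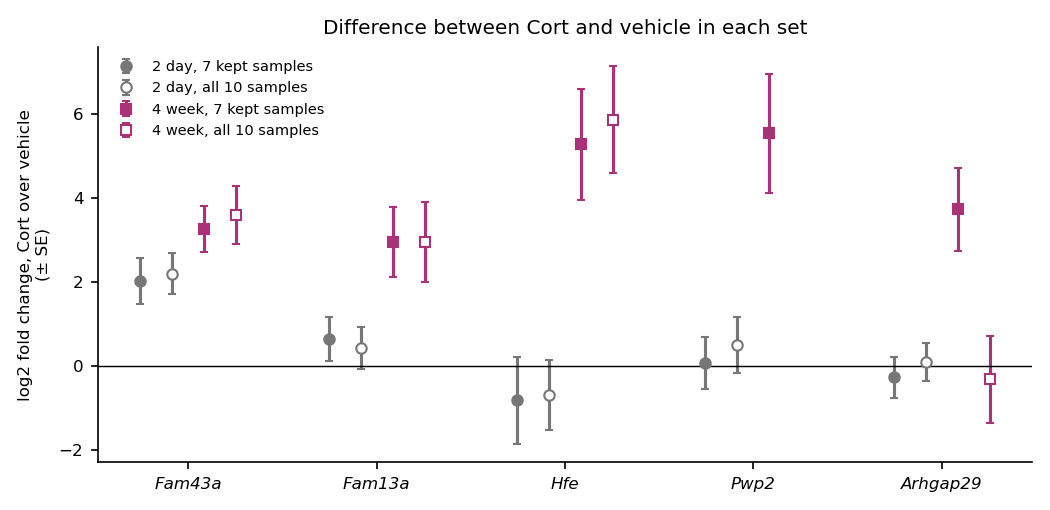
Log2 fold change of Cort over vehicle with its SE for the 5 genes, with circles for the 2 day set, squares for the 4 week set, filled for the 7 kept samples and open for all 10 (Pwp2 at 4 weeks could not be fitted over all 10). The 4 week values of Fam43a, Fam13a and Hfe stayed above 2.9 in both fits, while that of Arhgap29 went from 3.73 to −0.32.

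Per exon length, Fam43a had the highest mean level of the 5 genes in each of the 4 groups of kept samples. Over all 5 samples of the 4 week vehicle group, Arhgap29 had the higher mean, at 5.38 against 4.52 CPM per kilobase of exon (RPKM). In RPKM, the Fam43a mean in kept samples was 4.68 ± 1.25 and 18.9 ± 16.0 in 2 day vehicle and Cort, and 4.53 ± 2.22 and 43.7 ± 10.8 in 4 week vehicle and Cort (SD). By RPKM it lay between the 32.8 and 56.3 percentiles of detected genes in the 4 week kept vehicle samples and between the 89.5 and 95.7 percentiles in the Cort samples. In 4 week Cort samples it was followed by Pwp2 (11.9 ± 16.6), Hfe (8.43 ± 5.05), Arhgap29 (5.41 ± 4.12) and Fam13a (4.22 ± 0.89), and each neighbour in this order overlapped the next in range, Fam43a and Pwp2 included. In 4 week vehicle samples Fam43a was followed by Fam13a (0.539 ± 0.173), Arhgap29 (0.404 ± 0.313), Pwp2 (0.249 ± 0.141) and Hfe (0.200 ± 0.245), and among these 4 the neighbours did not differ beyond their spread, while Fam43a lay above Fam13a with no overlap. In 2 day vehicle samples the order was Fam43a, Pwp2 (2.79 ± 1.52), Arhgap29 (1.99 ± 1.04), Hfe (1.77 ± 1.56) and Fam13a (1.05 ± 0.364), again with each range overlapping the next. In 2 day Cort samples Fam43a was followed by Pwp2 (2.88 ± 1.73), Arhgap29 (1.63 ± 0.359), Fam13a (1.61 ± 0.777) and Hfe (0.993 ± 0.747), and of these neighbours the ranges of Fam43a and Pwp2 alone did not overlap.

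Among samples of a group the 5 genes did not vary together as a whole. The pairs among Hfe, Pwp2 and Arhgap29 were the highest of the 10 at 2 days, but not all of them were positive at 4 weeks. Over the 10 samples of the 4 week set, Pearson's r of log2 CPM was 0.86 between Fam13a and Hfe and 0.82 between Fam43a and Hfe, which the difference between treatments carries. With the group means removed, the 10 pairs had a median r of 0.04, from −0.60 for Fam43a with Fam13a to 0.33 for Fam13a with Hfe. At 2 days the median over the 10 pairs was −0.11 with group means removed. The highest were 0.58 for Hfe with Arhgap29, 0.54 for Pwp2 with Arhgap29 and 0.40 for Hfe with Pwp2. At 4 weeks, also with group means removed, the same pairs gave −0.42, 0.23 and 0.29. These values rest on 10 libraries a set that share their depth and scaling, and are a description.

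The gene most like Fam43a over both sets was Serpina3n, a serine protease inhibitor that astrocytes make when they react, with r = 0.79 at 2 days and 0.92 at 4 weeks over 10 samples each. In the Cort samples where Fam43a was low at 2 days, Serpina3n had 282 CPM (C06) and 519 CPM (C10), against 552 to 750 CPM in C01, C03 and C08. The 2 day vehicle samples had 142 CPM (C09) to 215 CPM (C02). Serpina3n was thus above every vehicle sample in C06 and C10, where Fam43a was not. Likeness was measured as the lower of the 2 values of r among 11015 genes. By it Rab3b, a small GTPase of synaptic vesicles, came next for Fam43a (0.78 and 0.82), AI464131 (0.90 and 0.77) and Arxes2 (0.76 and 0.77) for Fam13a, and Ina, a neuronal intermediate filament gene (0.76 and 0.88), and Grb14, an adaptor of the insulin receptor (0.77 and 0.74), for Hfe. For Pwp2 these were Bod1l (0.74 and 0.91) and Trio (0.76 and 0.70), and for Arhgap29 the glycosyltransferase gene Mgat4a (0.75 and 0.78) and Ice1 (0.73 and 0.82). With 10 samples and 11015 genes, values of this size are picked as the highest of many. Group means were not removed here, so r includes the difference between treatments, which at 4 weeks chose the members.

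None of the close relatives of the members passed the test. Fam43b, the paralog of Fam43a, had 10.1 ± 4.71 CPM in vehicle and 9.82 ± 6.27 CPM in Cort at 2 days, and 3.33 ± 3.90 against 8.89 ± 4.57 CPM at 4 weeks (SD, n = 3 and 4), with log2 fold changes of −0.03 ± 0.63 and 1.40 ± 1.51 (SE). Fam13b had log2 fold changes of −0.36 ± 0.21 and 0.40 ± 0.36, and Fam13c of 0.01 ± 0.46 and 0.06 ± 0.99, at 2 days and 4 weeks. Gmip, a relative of Arhgap29, had 0.87 ± 0.54 and 0.55 ± 1.31. Hmha1 had 1.86 CPM or less in every group mean and did not pass the filter. None of the 4 relatives tested had a Padj below 0.1 by edgeR or DESeq2 or an unadjusted p below 0.05 in either set. Their standard errors at 4 weeks, up to 1.51, leave changes of the size seen in the members within reach for Fam43b and Gmip.

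No other gene on the lists of iron handling or of the processome was called at a Padj below 0.1. Of 38 other iron genes in the tables, 32 were tested at 2 days and 29 at 4 weeks, with no Padj below 0.1 by edgeR or DESeq2. At an unadjusted p below 0.05 by edgeR, 2 were higher and 1 lower at 2 days, where the background was 3.14% of genes higher and 2.83% lower. At 4 weeks 2 were higher and none lower, where the background was 2.95% of genes higher and 1.95% lower. These small counts were not tested against the background. At a Padj below 0.1 the 4 week background was 0.0357% higher and 0.00892% lower. The list's median log2 fold change was 0.05 and −0.14, against 0.02 and 0.04 over all genes. Fth1, the ferritin heavy chain that stores iron, had 1040 ± 97.6 CPM in vehicle and 1395 ± 252 CPM in Cort at 2 days (log2 fold change 0.43 ± 0.13, Padj = 0.509 by edgeR, and 0.13 over all 10 samples), and Bmp2, a signal that induces hepcidin, had −1.43 ± 0.57. At 4 weeks Cp, the ferroxidase ceruloplasmin, had 1.29 ± 1.60 CPM in vehicle and 21.9 ± 16.4 CPM in Cort (4.05 ± 1.51, Padj = 0.99), which fell to 0.45 over all 10 samples. Bmpr2 had 0.48 ± 0.21 there, and 0.13 over all 10.

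Of 35 other small subunit processome genes, 35 were tested at 2 days and 34 at 4 weeks, with no Padj below 0.1 by edgeR or DESeq2. At an unadjusted p below 0.05 by edgeR, 1 was higher and 3 lower at 2 days, against 3.14% and 2.83% of all genes. At 4 weeks 1 was higher and none lower, against 2.95% and 1.95% of all genes. These small counts were not tested against those shares. The medians were 0.03 and −0.04. Noc4l (−1.18 ± 0.46) and Rcl1 (1.17 ± 0.50) had the smallest p-values at 2 days, and Cirh1a (1.53 ± 0.72, and 0.69 over all 10 samples) and Nop56 (−1.06 ± 0.53, and −1.04) at 4 weeks. Among the genes listed, the 4 week log2 fold changes in the kept samples ran from −1.49 to 2.26.

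The list of 25 glucocorticoid-induced genes had a median above that of all genes in both sets. Over all genes, 3.14% were higher and 2.83% lower at 2 days at an unadjusted p below 0.05 by edgeR, and 2.95% and 1.95% at 4 weeks. The list was chosen with earlier results of these data known. It holds Fam107a, Fkbp5, Glul, Mt2 and Mertk, which the paper reports as raised by Cort. Its median and calls are thus a description only. At 2 days 21 were tested, of which 2, Fam107a and Glul, had a Padj below 0.1, 8 were higher and none lower at an unadjusted p below 0.05, and the median log2 fold change was 0.62. Glul, which encodes glutamine synthetase, rose by 0.54 ± 0.10 (SE, Padj = 0.042 by edgeR). Over all 10 samples this call was lost in the unweighted fit (0.52, Padj = 0.743 by edgeR) and held with voom quality weights. DESeq2 on the 7 samples called Fkbp5 beside Fam107a and Glul. At 4 weeks 19 were tested, 1 (Fam107a) had a Padj below 0.1, 6 were higher and none lower at an unadjusted p below 0.05, and the median was 0.59. Mertk, a phagocytic receptor of astrocytes and microglia, had 2.54 ± 0.84 at 4 weeks (Padj = 0.918 by edgeR), and 1.19 over all 10. DESeq2 on the 7 samples called Mertk at 4 weeks, beside Fam107a. Of the 5 members, Fam43a at 2 days (2.03) lay near the upper end of this list, whose values ran from −0.74 to 2.27, and the other 4 lay between −0.82 and 0.63.

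**Figure D4:**
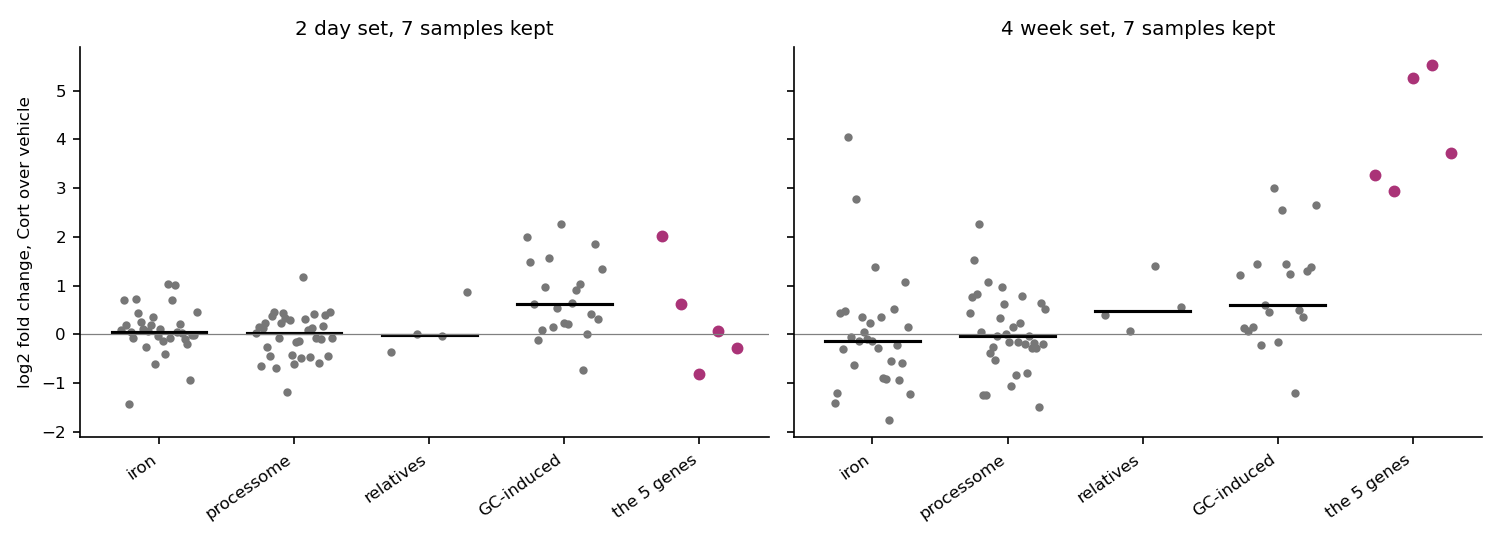
Log2 fold change of Cort over vehicle for each tested gene of 4 lists (grey points, black bars for the median; GC-induced means glucocorticoid-induced) and for the 5 genes (purple points, from left Fam43a, Fam13a, Hfe, Pwp2 and Arhgap29) in the 7 kept samples of each set. The iron and processome lists are centred near 0 in both sets, the glucocorticoid-induced list has medians of 0.62 and 0.59, and the 5 genes run from −0.82 to 2.03 at 2 days and from 2.95 to 5.53 at 4 weeks.

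None of the genes beside the members on the chromosome passed the test. The nearest gene tested in both sets on each side gave 10 neighbours: Lsg1 and Xxylt1 for Fam43a, Herc3 and Tigd2 for Fam13a, the histone genes Hist1h2bc and Hist1h1c for Hfe, D10Jhu81e and Trappc10 for Pwp2, and Abcd3 and Abca4 for Arhgap29. None had an unadjusted p below 0.05 in either set, and the lowest Padj was 0.883 by edgeR. The largest 4 week value was that of Xxylt1, 1.72 ± 1.00 (SE), 352 kb from Fam43a. Lsg1, 12.1 kb away on the other side, was −0.92 ± 0.96. D10Jhu81e and Trappc10, 1.13 and 1.58 kb from Pwp2, had −0.39 ± 1.499 and 0.18 ± 0.68.

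Markers of other cell types differed between groups in some lists. In bulk ARC, more cells of a type and more RNA per cell cannot be told apart. Among the 7 kept samples at 4 weeks, the summed level of 10 astrocyte markers was 3582 to 3682 CPM in vehicle and 4004 to 5547 CPM in Cort, which did not overlap, though over all 10 samples vehicle ran from 2590 to 4903 CPM and the groups overlapped. All 10 markers had counts. The other 8 lists overlapped between groups at 4 weeks, with 83.2 to 232 CPM against 147 to 479 CPM for 14 endothelial and 287 to 492 CPM against 298 to 472 CPM for 10 microglial markers, and Folr1, Kcne2 and Aqp1 of the 6 choroid plexus markers were at 0 in every sample. At 2 days the kept groups did not overlap for oligodendrocyte (734 to 807 CPM in vehicle, 848 to 1334 in Cort), microglial (356 to 423 and 455 to 532) and arcuate neuron markers (1807 to 2333 and 2485 to 3291), and all lists overlapped over the 10 samples. The part of cell composition in the members' values was not tested.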

How the data were processed

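Male C57BL6/J mice were given vehicle or Cort for 2 days or 4 weeks, and RNA of laser-captured ARC was amplified and sequenced as 50-base single-end reads. The authors mapped reads to GRCm38 with Rsubread, assigned them with featureCounts and deposited a raw count of 22048 genes in 10 samples per set. Strand and multi-read settings were not given in the sources used here. The authors' normalized tables served only to pair gene IDs with symbols, and their other columns (size-factor scaled counts and the authors' DESeq2 fold changes and p-values) were not used.

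Groups followed the labels. Column headers give a sample number and no treatment, so each column was placed in its group by the study's list of samples and tied to no single labelled sample. Per set, the 3 vehicle and 4 Cort samples kept by the study were fitted with edgeR 4.0.16 (filterByExpr, TMM, 2-sided quasi-likelihood test, Benjamini-Hochberg over all genes, Padj below 0.1) in R 4.3.3. The fit was tested on simulated data. Alternatives used DESeq2 1.42.0, limma 3.58.1 voom, other scaling and filters, all 10 samples, and each sample left out. CPM values used TMM over 10 samples, and correlations log2 CPM with a prior count of 2. Exon lengths came from GENCODE M21, in which 21781 genes matched. Ratios of summed counts carry no interval, and floors of 3 counts cover counting error only. Figures used matplotlib 3.10.9, and summaries scipy 1.17.1, numpy 2.4.6 and pandas 2.3.3 under Python 3.11.15. Total counts were 1065776 to 5748223 per sample.

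The members and gene lists were chosen with earlier results of these data known. Named genes are the members, their close relatives, the 2 genes with the smallest p per reported list and set, Fkbp5 and Fam107a, the nearest tested neighbours and the 2 genes most like each member. The lists for a further pathway of the members are not reported here.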

Additional observations from a re-analysis of the deposited data

Results flagged for a closer look

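Among the 20 groups of 5 samples (5 genes, 4 groups), 2 held a sample far from the others of its group by Dixon's test on CPM, where chance flags about 1 in 20. Pwp2 in 4 week Cort sample C07 was at 140.5 CPM, with the next sample at 33.3 CPM. Hfe in 4 week vehicle sample C02 was at 1.69 CPM, from 5 counts, with the next sample at 0.448 CPM. Both are 4 week values that the choice of the genes used, so they are given as descriptions, and the Hfe values lie near the floor of 3 counts.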

How the results depend on the processing

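No paired analysis was possible because the columns carry no replicate numbers. Genes called at 2 days numbered 8, and 52 with DESeq2, 24 without the filter on low counts, 2 over all 10 samples, 4 with voom weights and 1 to 16 leaving out each sample (1 without vehicle C02, 16 without Cort C06). At 4 weeks they numbered 5, and 68 with DESeq2, 3 with upper quartile scaling, 9 without the filter, 1 over all 10 samples and 0 to 10 leaving out each sample (0 without vehicle C03 or C04 or Cort C08, C09 or C10, each with 479 to 532 genes at an unadjusted p below 0.05, 2 without vehicle C02, and 10 without Cort C07). The 2 day Fam43a log2 fold change was 2.03 and passed without the filter (2.03, Padj = 0.0261 by edgeR) and without Cort C06 (2.34), in a range of 1.49 to 2.34. At 2 days, leaving out each sample gave 0.34 to 0.88 for Fam13a, −1.37 to −0.12 for Hfe, −0.36 to 0.50 for Pwp2 and −0.64 to 0.057 for Arhgap29, which was 0.088 over all 10 samples. Pwp2 and Arhgap29 thus have no settled direction at 2 days. At 4 weeks Fam43a was 3.86 with voom weights and 2.97 to 3.69 leaving out each sample, Fam13a 2.71 to 3.16, Hfe 4.73 to 6.88, Pwp2 3.85 to 5.91 and Arhgap29 3.06 to 4.55. Arhgap29 was −0.32 over all 10 samples and 2.24 with voom weights. The cause of these changes was not tested. With at least 10 counts required in every sample, only Fam43a of the members could be fitted at 4 weeks, and Hfe and Pwp2 could not be fitted at 2 days. Low counts limit the fits of Hfe and Pwp2 most, since their 4 week vehicle samples held at most 5 and 3 counts.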
